A study of Mus musculus with 12 samples.

Results

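Ubd, Apoa2, Serpina3m and Crisp1 are 4 of the 26742 genes in a table of read counts from mouse embryonic stem (ES) cells of B6J and 129 background. They were selected on their measured levels in these libraries, as genes with reads in B6J cells and with few or none in 129 cells, so the difference between backgrounds is given below as a description, without a test. The response to the MEK inhibitor within each background was not used to select them, and it was tested. In 129 that response, and its difference from B6J, are measured on the low levels that the selection used. Apoa2, Serpina3m and Crisp1 still had reads in every 129 library, and Ubd had 2 reads in 1 of them, so "on in B6J only" is a matter of level.

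The series concerns genetic variation among naive pluripotent cells. ES cells labelled male were grown in serum and leukaemia inhibitory factor (LIF), and either the MEK inhibitor PD 0325901 at 1 µM or its solvent DMSO was given daily through day 5. The 4 groups were B6J with inhibitor, B6J with DMSO, 129 with inhibitor and 129 with DMSO, with 3 libraries in each. RNA was isolated with Trizol and made into stranded polyA libraries. MEK activates the kinase ERK, and blocking it is one arm of the "2i" culture that holds mouse ES cells in the naive state. The labels give each background 1 genotype and name no clone, so what differs between the backgrounds and what differs between 2 lines of cells cannot be told apart. They do not say whether the 3 libraries of a group were separate cultures. The p-values therefore speak only of the spread among these libraries, and that spread may be technical. In such bulk samples, fewer cells that carry a transcript and less transcript per cell cannot be told apart.

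Library totals ran from 62634533 to 96341637 counts. Of 12 MEK/ERK target genes, 11 fell with the inhibitor in B6J and 10 fell in 129, with 0 called higher in both. The pluripotency genes that define ES cells were abundant, among them Pou5f1 (Oct4) at 828 ± 17.2 CPM in B6J with inhibitor, 773 ± 73.3 in B6J with DMSO, 887 ± 13.6 in 129 with inhibitor and 766 ± 93.6 in 129 with DMSO (SD, n = 3 each). CPM are reads scaled to a common library total, here after adjustment of the totals by TMM. Of 12 ES cell markers, 7 were called higher and 1 lower with the inhibitor in B6J, and 8 higher and 0 lower in 129. Over all genes tested, 14.6% were called higher and 16.5% lower with the inhibitor in B6J, and 17.4% higher and 18.2% lower in 129. The library of each group that lay farthest from its replicates was replicate 3 of B6J with inhibitor, replicate 1 of B6J with DMSO, replicate 1 of 129 with inhibitor and replicate 1 of 129 with DMSO.

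The 4 genes have unrelated roles. Ubd encodes FAT10, a ubiquitin-like protein that interferon gamma and tumour necrosis factor (TNF) induce together, and that marks proteins for the proteasome. Apoa2 encodes apolipoprotein A-II, a main protein of high-density lipoprotein made in the liver. Serpina3m belongs to the clade A serpins, secreted inhibitors of serine proteases whose Serpina3 branch was expanded in the mouse. Crisp1 encodes a cysteine-rich secretory protein that the epididymis makes under androgen and that coats sperm. None of the 4 is a usual marker of ES cells.

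The genes lie on 3 chromosomes of the GRCm38 build, in the GENCODE M21 annotation. Ubd (ENSMUSG00000035186) spans chr17:37193892-37196095 on the plus strand, in 2 exon blocks of 931 bases in all, between olfactory receptor genes. Apoa2 (ENSMUSG00000005681) spans chr1:171225054-171226379 on the plus strand, with 537 exon bases in 4 blocks. Crisp1 (ENSMUSG00000025431) spans chr17:40293758-40319207 on the minus strand, with 1416 exon bases in 8 blocks. Serpina3m (ENSMUSG00000079012) is annotated at chr12:104338486-104394257 on the plus strand, with 1719 exon bases in 6 blocks. That span overlaps Serpina3k on the same strand, with 60 exon bases in common. RefSeq has a shorter span of Serpina3m at chr12:104387157-104394259. The overlap, the exon length and the start distances used below rest on the longer GENCODE span.

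Sequence shared with other genes bears on how far their counts can be trusted. Of all 50-base words in the Serpina3m transcripts, 19.1% also occur in transcripts of another gene, 16.0% in Serpina3k, 1.99% in Serpina3c and 1.12% in Serpina3n, so its counts may be split or dropped in part and are uncertain to that extent. For Crisp1 the share is 2.41%, all of it with Crisp3. For Ubd and Apoa2 it is 0%.

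The 250 bases upstream of the start of Ubd, Apoa2 and Crisp1 are shown because these genes share an on and off pattern between backgrounds. The windows shown have fewer CpG than the median window, which was not a reason to choose them among the members. CpG is the dinucleotide that DNA methylation acts on. RefSeq also has a start of Apoa2 at chr1:171221564, whose window is not shown. The sequences are RefSeq's on GRCm38.p6, printed 5′ to 3′ on the strand of the gene, at chr17:37193642-37193891 for Ubd, chr1:171224804-171225053 for Apoa2 and chr17:40319208-40319457 for Crisp1. Capitals mark matches, on either strand, of the motifs searched. These were the core promoter motif TATAAA, the motif CCAAT that factor NF-Y binds (its opposite strand reads ATTGG), the NF-kappaB core GGGNNTTCC, the interferon gamma activated element TTCNNNGAA, and the androgen receptor hexamer TGTTCT (its opposite strand reads AGAACA). The dinucleotide CG was marked as well.
Ubd: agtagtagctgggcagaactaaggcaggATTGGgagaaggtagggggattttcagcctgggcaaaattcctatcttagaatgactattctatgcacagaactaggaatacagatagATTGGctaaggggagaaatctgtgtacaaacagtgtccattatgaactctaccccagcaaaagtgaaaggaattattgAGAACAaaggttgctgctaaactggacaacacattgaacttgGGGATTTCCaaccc
Apoa2: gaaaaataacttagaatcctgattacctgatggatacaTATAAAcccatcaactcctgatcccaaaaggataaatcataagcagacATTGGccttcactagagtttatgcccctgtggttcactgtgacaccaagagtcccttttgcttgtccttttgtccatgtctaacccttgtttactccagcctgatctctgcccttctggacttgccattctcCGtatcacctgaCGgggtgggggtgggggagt
Crisp1: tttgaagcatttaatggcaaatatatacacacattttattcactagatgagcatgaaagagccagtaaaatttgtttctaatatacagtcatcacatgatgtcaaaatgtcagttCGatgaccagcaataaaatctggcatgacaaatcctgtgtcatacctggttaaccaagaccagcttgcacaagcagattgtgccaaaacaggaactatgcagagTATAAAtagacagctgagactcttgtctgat

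The Ubd window holds 0 CpG, as do 7.87% of the 32851 promoter windows of this length. The Crisp1 window holds 1, and 18.8% of windows have as few. The Apoa2 window holds 2, and 29.0% of windows have as few, against a median of 6 over all windows. Ubd has a GGGNNTTCC match whose first base is at -14 from the start, a TGTTCT match at -56 and 2 CCAAT matches. Apoa2 has a TATAAA match at -212 and a CCAAT match at -164, and Crisp1 has a TATAAA match at -31. No TTCNNNGAA match lies in these windows. Over all windows, TATAAA is found in 12.4%, CCAAT in 33.8%, GGGNNTTCC in 4.98%, TTCNNNGAA in 7.02%, TGTTCT in 16.1% and CG in 92.1%. No match overlaps another in the 3 windows, and a match is a stretch of letters, not a site shown to be used.

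Ubd showed the widest gap between backgrounds. The 3 libraries of B6J with inhibitor held 762, 809 and 834 reads (9.64, 9.84 and 8.76 CPM), and those of B6J with DMSO held 492, 449 and 451 (6.19, 5.40 and 6.08 CPM). The libraries of 129 with inhibitor held 2, 0 and 0 reads, and those of 129 with DMSO held 0 in each. Every B6J library was thus far above every 129 library, and the inhibitor and DMSO libraries of B6J did not overlap. In the inhibitor, 2405 reads in B6J stood against 2 in 129, a ratio of 1040 after library scaling with a 95% counting interval of 287 to 8570. In DMSO, 1392 reads stood against 0, so Ubd was at least 408-fold higher in B6J, with the 129 libraries together set to a floor of 3 counts. Intervals and floors cover counting error only. Whether both reads of a pair were counted is not given in the sources used here, and low counts were mostly even; if they were, the reads stand for fewer fragments, the intervals are too narrow and the bound is too high.

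Apoa2 was at near equal levels in both media in B6J. It had 12.9, 13.9 and 15.8 CPM in B6J with inhibitor and at 13.9, 13 and 13 CPM in B6J with DMSO. In 129 it was at 0.373, 0.181 and 0.121 CPM with inhibitor and at 0.0961, 0.168 and 0.218 CPM with DMSO, from 49 and 33 reads in all. The inhibitor and DMSO libraries overlapped in both backgrounds. Its B6J mean was 63.1-fold that of 129 in the inhibitor (counting interval 48.7 to 87.4) and 82.6-fold in DMSO (59.6 to 122).

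The Serpina3m libraries were ordered differently in the 2 backgrounds. It was at 6.59, 5.93 and 6.03 CPM in B6J with inhibitor and at 7.06, 8.70 and 7.80 CPM in B6J with DMSO. In 129 it was at 0.414, 0.166 and 0.424 CPM with inhibitor (76 reads in all) and at 0.137, 0.056 and 0.0468 CPM with DMSO (17 reads in all). The inhibitor libraries lay below the DMSO libraries in B6J and above them in 129, with no overlap in either background. The B6J mean was 18.5-fold that of 129 in the inhibitor (counting interval 14.3 to 22.9) and 98.1-fold in DMSO (60.1 to 166).

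Crisp1 was higher with the inhibitor in both backgrounds. It was at 8.68, 9.01 and 6.79 CPM in B6J with inhibitor and at 5.01, 4.76 and 4.61 CPM in B6J with DMSO. In 129 it was at 0.414, 0.226 and 0.436 CPM with inhibitor (81 reads in all) and at 0.0274, 0.056 and 0.0936 CPM with DMSO (12 reads in all). The inhibitor and DMSO libraries did not overlap in either background. The share of all genes without such overlap is not given here, so nothing is read from it for any member. The B6J mean was 22.7-fold that of 129 in the inhibitor (counting interval 17.7 to 27.9) and 81.2-fold in DMSO (47.5 to 162).

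**Figure D1:**
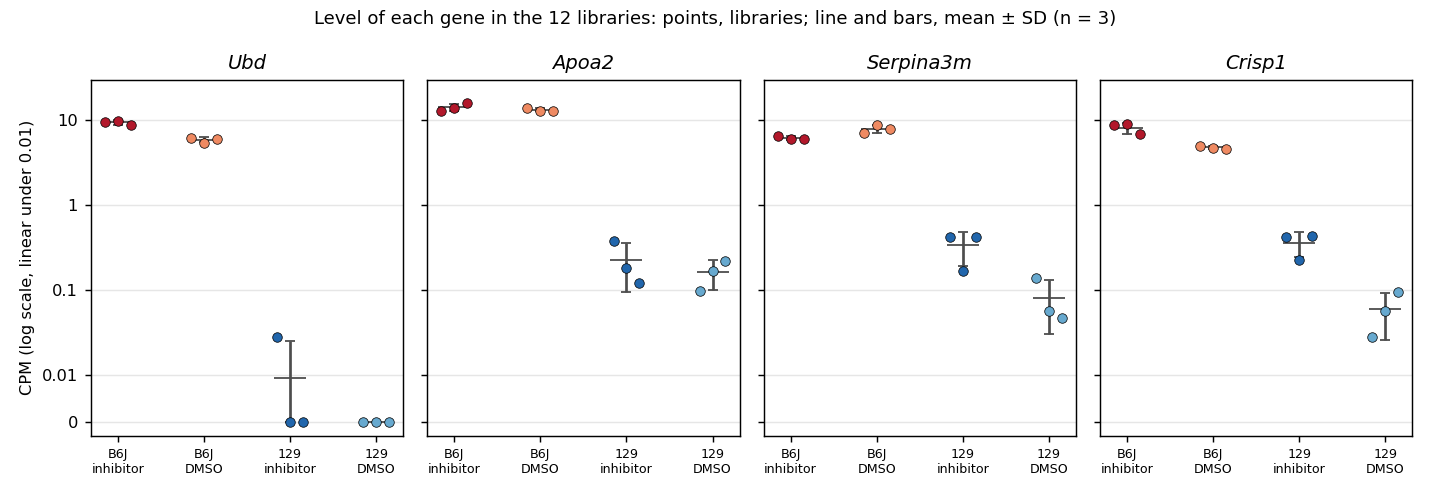
Level of each gene in CPM (log axis, linear under 0.01) in the 12 libraries, with 1 panel per gene and the groups from left to right B6J with inhibitor, B6J with DMSO, 129 with inhibitor and 129 with DMSO. Points are libraries, and the line and bars are the mean ± SD (n = 3); Ubd is at 0 in 5 of the 6 libraries of 129, while Apoa2, Serpina3m and Crisp1 lie between 0.0274 and 0.436 CPM there.

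Levels were also compared per length of exon. In B6J with inhibitor, Apoa2 stood at 26.4 ± 2.75 CPM per kb of exon, Ubd at 10.1 ± 0.615, Crisp1 at 5.76 ± 0.847 and Serpina3m at 3.6 ± 0.207 (SD, n = 3 each). In B6J with DMSO the order was Apoa2 at 24.7 ± 0.914, Ubd at 6.33 ± 0.460, Serpina3m at 4.57 ± 0.477 and Crisp1 at 3.39 ± 0.141 CPM per kb. The libraries of neighbours in each of these orders did not overlap, so Crisp1 and Serpina3m changed places between the media. In 129 all 4 were under 0.5 CPM per kb in their group means, with Apoa2 highest at 0.419 with inhibitor and 0.3 with DMSO. Within B6J the spread between libraries was small, with coefficients of variation from 3.69% (Apoa2 in DMSO) to 14.7% (Crisp1 in the inhibitor).

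**Figure D2:**
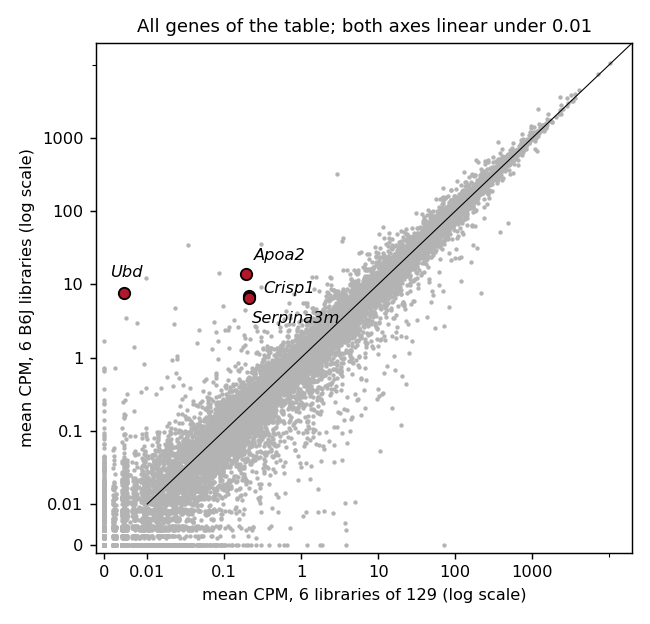
Mean CPM of every gene of the table over the 6 B6J libraries (vertical axis) against that over the 6 libraries of 129 (horizontal axis), both on log axes that are linear under 0.01, with the line of equal level. Ubd, Apoa2, Serpina3m and Crisp1 are the red points, far above the line, and other genes lie as far from it on either side.

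Ranked by the fitted difference between backgrounds among the 16627 genes that passed the filter on low counts, Ubd was number 3 in the inhibitor and number 2 in DMSO. The other members ranked 29 (Apoa2), 45 (Crisp1) and 56 (Serpina3m) in the inhibitor, and 24 (Serpina3m), 25 (Apoa2) and 26 (Crisp1) in DMSO. All 4 passed the filter, Ubd through its B6J libraries alone. By a rule of levels alone, with every 129 library under 0.1 CPM and every library of at least 1 B6J group at 1 CPM or more, 12 genes were on in B6J only, which is 0.0722% of the genes tested. Of the 4 members, Ubd met that rule and ranked 3 by CPM, not per length, among the 12. The other members had a 129 library above 0.1 CPM, and all 4 were among the 43 genes found with a 129 limit of 0.5 CPM. The mirror pattern, on in 129 only, was met by 13 genes at the 0.1 CPM limit and by 72 at 0.5 CPM.

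The named genes that shared this pattern with Ubd were Olig2, H2-T3 and Flg, and the other 8 had provisional names. Olig2, a transcription factor of the oligodendrocyte and motor neuron lineages, was at 39.5 ± 1.69 CPM in B6J with inhibitor, 29.5 ± 4.30 in B6J with DMSO, 0.0474 ± 0.0485 in 129 with inhibitor and 0.0197 ± 0.0172 in 129 with DMSO (SD, n = 3 each). Flg, which encodes the skin barrier protein filaggrin, was at 1.49 ± 0.219 CPM in B6J with inhibitor and 1.89 ± 0.172 in B6J with DMSO, and had 0 reads in 129. H2-T3, an MHC class I gene whose counts are uncertain because the family shares sequence, was at 3.58 ± 0.487 CPM in B6J with inhibitor and 1.13 ± 0.364 in B6J with DMSO. H2-T3 met the rule only through the inhibitor group, so its response to the inhibitor is given as levels, without a test. Of the 12 genes, 4 were called higher with the inhibitor in B6J and 0 lower, where 14.6% of all genes tested were called higher and 16.5% lower. The rule asked for 1 CPM in only 1 B6J group, so a gene could enter through the group where it is high. Besides H2-T3, some of those called higher had a DMSO mean under 1 CPM and entered through the inhibitor group alone. The count is therefore not independent of the rule, and nothing is read from it.

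The response to the inhibitor in B6J was tested in 1 edgeR quasi-likelihood fit over all 12 libraries and 16627 genes, and adjusted p-values are Benjamini-Hochberg over all of them, with a call under 0.05. Crisp1 was called higher, and the other members were not called. This is 1 of 4 members, where 14.6% of all genes tested were called higher and 16.5% lower. Crisp1 rose 1.70-fold, by 0.77 ± 0.228 in log2 units (SE; adjusted p = 0.0247). Its call was lost when any B6J library other than replicate 3 with inhibitor was left out, with adjusted p from 0.0524 to 0.0936 in those 5 fits.

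Ubd stood just short of the threshold. Its log2 fold change in B6J was 0.68 ± 0.232 (SE), or 1.60-fold, with an adjusted p = 0.052 in edgeR's quasi-likelihood test. It was called in a fit of the B6J libraries alone (log2 fold change 0.68, adjusted p = 0.00245) and with DESeq2 (0.69, adjusted p = 1.85e-06), and when any one of the 6 libraries of 129 was left out (adjusted p from 0.00604 to 0.0466). It was not called when any one of the 6 B6J libraries was left out (adjusted p from 0.0901 to 0.159). With the replicate number as a block it was not called either (0.68, adjusted p = 0.0845).

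Apoa2 and Serpina3m were not called in B6J. The log2 fold change of Apoa2 was 0.10 ± 0.242 (SE; adjusted p = 0.805), and that of Serpina3m was -0.34 ± 0.265 (SE; adjusted p = 0.363). Over 24 alternative fits the adjusted p of Serpina3m was at its lowest 0.0571.

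In 129 the response could be tested for the 3 members with reads in both groups. Crisp1 and Serpina3m were called higher and Apoa2 was not, which is 2 of 3, where 17.4% of all genes tested were called higher and 18.2% lower. Crisp1 rose 6.11-fold, by 2.61 ± 0.373 in log2 units (SE; adjusted p = 0.000289), to 4.40% of its B6J level in the inhibitor, against 1.23% in DMSO. Serpina3m rose 4.10-fold, by 2.04 ± 0.415 (SE; adjusted p = 0.00291), to 5.41% of its B6J level in the inhibitor, against 1.02% in DMSO. These folds rest on 12 and 17 reads in the 3 DMSO libraries of 129. Low levels in 129 were part of how the members were selected, so the share called is no test of them as a set. For Apoa2 the log2 fold change was 0.48 ± 0.390 (SE; adjusted p = 0.36), and without replicate 1 of 129 with inhibitor, which held 27 of its 49 reads there, of -0.09 (adjusted p = 0.884).

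Whether the response differed between backgrounds was tested by the interaction, B6J minus 129. Serpina3m was called lower, with a log2 difference of -2.38 ± 0.494 (SE; adjusted p = 0.0405), which is 1 of 3 members where 0.770% of all genes tested were called lower. The interaction is also the difference between backgrounds in the inhibitor minus that in DMSO. The members were selected on those differences, so neither the Serpina3m call nor this share is independent of the selection. That call was lost when any library was left out except replicate 2 of 129 with inhibitor or replicate 1 of 129 with DMSO, with values from -3.03 to -2.13 over all 12 and an adjusted p of up to 0.121. With the replicate number as a block the difference was -2.39 (adjusted p = 0.0778). Crisp1 had a difference of -1.84 (SE 0.445) that was not called (adjusted p = 0.072), and Apoa2 one of -0.39 (SE 0.458, adjusted p = 0.782).

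**Figure D3:**
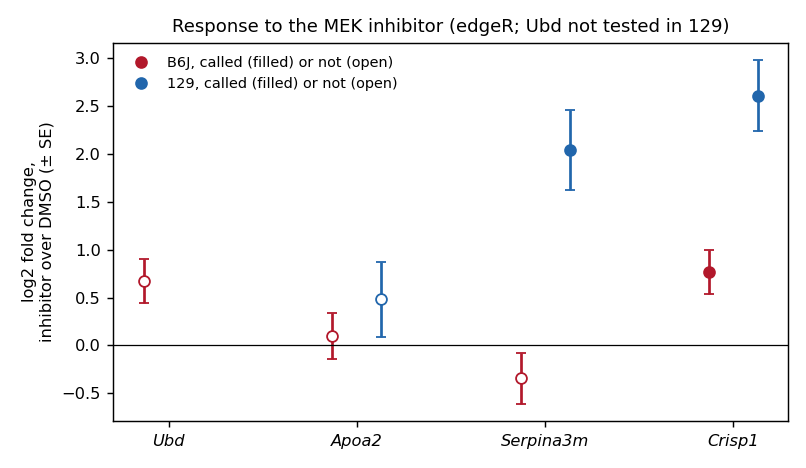
Log2 fold change of each gene with the MEK inhibitor over DMSO, with its SE, in B6J (red) and in 129 (blue), from edgeR's fit; filled points were called and open points were not. Crisp1 was called in both backgrounds and Serpina3m in 129, where its value is 2.04 against -0.34 in B6J; Ubd had too few reads in 129 for a test.

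Markers of fibroblasts, the usual feeder cells of ES cultures, moved with the inhibitor too. Their summed level ran from 10100 to 15700 CPM in B6J with inhibitor, 7600 to 8470 in B6J with DMSO, 10200 to 14600 in 129 with inhibitor and 5410 to 9790 in 129 with DMSO. Among all genes tested, 14.6% were called higher with the inhibitor in B6J and 17.4% in 129. Between backgrounds 8.90% were called higher and 9.47% lower in B6J in the inhibitor, and 10.4% and 10.5% in DMSO. Of the 20 markers, 11 rose in B6J and 13 in 129, and 0 were called between backgrounds in either medium. Leaving out 1 library at a time gave 6 to 14 in B6J, with 6 without replicate 2 or 3 with inhibitor or replicate 1 with DMSO, and 7 without replicate 3 with DMSO. It gave 8 to 17 in 129, with 8 without replicate 1 with inhibitor or replicate 2 or 3 with DMSO. Replicate 1 of 129 with DMSO held the highest sum of its group, and without it 7 markers were called higher in B6J than in 129 in DMSO and 1 in the inhibitor. Without the library of each group that stands apart, those counts were 19 and 2. Calls between backgrounds over all genes, in either direction, rose in these fits too. With all libraries they were 3468 in DMSO and 3053 in the inhibitor. They were 4056 and 3915 without replicate 1 of 129 with DMSO, and 6493 and 5757 without the libraries that stand apart. With the markers' mean log2 CPM as a covariate, Crisp1 kept its call in B6J (log2 fold change 0.99, adjusted p = 0.0404) and in 129 (2.93, adjusted p = 0.00193). The other members were not called in B6J, with 0.79 for Ubd (adjusted p = 0.156), -0.75 for Serpina3m (adjusted p = 0.122) and -0.12 for Apoa2 (adjusted p = 0.831), all as log2 fold changes. In 129 that of Serpina3m was then 1.5 (adjusted p = 0.0544). In the interaction Serpina3m (-2.25, adjusted p = 0.0193) and Crisp1 (-1.94, adjusted p = 0.0347) were both called. Leukocyte markers summed to between 19.7 and 22.5 CPM in B6J with inhibitor, 12.1 and 17.3 in B6J with DMSO, 31.2 and 34.3 in 129 with inhibitor, and 21 and 28.1 in 129 with DMSO. Of the 11 tested, 4 rose in B6J and 3 in 129, where those shares of all genes tested were 14.6% and 17.4%. The fibroblast covariate was 6.74 to 7.37 in B6J with inhibitor and 6.18 to 6.47 in B6J with DMSO. In 129 it was 6.79 to 7.42 with inhibitor and 5.68 to 6.61 with DMSO. It moved with the treatment without overlap, so calls kept or lost under it cannot tell fibroblast content from the inhibitor. The part of fibroblasts or leukocytes in the members' responses was not tested otherwise.

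Among themselves, the members fell into different patterns over the 6 B6J libraries. Log2 CPM of Ubd and Crisp1 correlated at r = 0.97, both being higher in the 3 inhibitor libraries. Serpina3m ran against them, with r = -0.91 to Ubd and r = -0.82 to Crisp1, while Apoa2 had r = 0.36 to Ubd and r = 0.21 to Crisp1. Over the 6 libraries of 129, Serpina3m and Crisp1 correlated at r = 0.79, where both rose with the inhibitor. These values describe 6 libraries that share their treatment groups, and they carry no test.

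The genes most like each member were taken by Pearson correlation of log2 CPM. Over all 12 libraries such values mostly restate the gap between backgrounds on which the members were selected. A high r between members, or to any gene with a steady gap, is thus built in. Within the 6 B6J libraries Ubd and Apoa2 had r = 0.36. Over all 12 libraries, Ubd was most like Apoa2 (r = 0.9950), Duxbl1 (0.9940) and Bcl2l12 (0.9934). Apoa2 was most like Bcl2l12 (0.9952), Ubd (0.9950) and Rps3a1 (0.9915). Duxbl1 had 0.766 ± 0.280 CPM in B6J with inhibitor, 0.623 ± 0.0679 in B6J with DMSO and 0 reads in 129. Bcl2l12 and Rps3a1 were high in every group, with Rps3a1, which encodes a ribosomal protein, at 879 CPM in B6J with inhibitor, 883 in B6J with DMSO, 382 in 129 with inhibitor and 338 in 129 with DMSO.

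Serpina3m was most like Nod1 (r = 0.9865), Pop4 (0.9812) and Capza1 (0.9791) over the 12 libraries. Nod1, an intracellular sensor of bacterial peptidoglycan, was at 48.1 CPM in B6J with inhibitor, 36.7 in B6J with DMSO, 4.66 in 129 with inhibitor and 2.23 in 129 with DMSO. Crisp1 was most like Nlrp4f (0.9907), Wfdc2 (0.9899) and Klhdc4 (0.9852). Nlrp4f, of the oocyte-expressed Nlrp4 family, was at 49.2 CPM in B6J with inhibitor, 29.3 in B6J with DMSO, 4.88 in 129 with inhibitor and 1.85 in 129 with DMSO. Wfdc2, an epididymal gene first known as HE4, was at 72.6 CPM in B6J with inhibitor, 50.1 in B6J with DMSO, 15.2 in 129 with inhibitor and 7.89 in 129 with DMSO. Nlrp4f rose in B6J with the inhibitor by 0.75 log2 units (adjusted p = 0.00568), and Wfdc2 by 0.54 (adjusted p = 0.0106).

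Within the 6 B6J libraries other genes came first. They were Zscan5b (r = 0.9995), Mep1b (0.9981) and Catip (0.9968) for Ubd, and Actr1a (0.9950), Slc39a6 (0.9933) and Fscn1 (0.9901) for Apoa2. They were S100a7a (0.9892), Themis (0.9868) and Spag1 (0.9833) for Serpina3m, and Lim2 (0.9987), Gnpnat1 (0.9968) and Tmprss6 (0.9957) for Crisp1. Zscan5b, Mep1b and Catip, unlike Ubd, were no lower in 129, with Catip at 2.12 CPM in B6J with inhibitor, 0.653 in B6J with DMSO, 11.2 in 129 with inhibitor and 2.58 in 129 with DMSO. With Spearman's rank correlation, 0 of the 3 names were the same in the lists over 12 libraries; over 6 libraries many genes tie in rank, and no order was read from it.

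Most genes tested near the members were not called between backgrounds. Of 73 genes of the table within 250 kb of a member, 43 were tested. In the inhibitor 2 were called higher and 8 lower in B6J than in 129, where 8.90% of all genes tested were called higher and 9.47% lower. In DMSO 4 were called higher and 7 lower, where 10.4% of all genes tested were called higher and 10.5% lower. With the inhibitor, 9 rose and 3 fell in B6J, where 14.6% of all genes tested were called higher and 16.5% lower. In 129, 16 rose and 4 fell, where those shares were 17.4% and 18.2%.

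Around Ubd, the nearest genes on both sides encode olfactory receptors, each under 0.5 CPM in every group mean. Olfr94, whose end lies 0.33 kb away, had 0.0566 CPM in B6J with inhibitor, 0.016 in B6J with DMSO and 0 reads in 129. Further off, Zfp57, which protects imprinted methylation, was at 373 CPM in B6J with inhibitor and 184 in B6J with DMSO, against 344 in 129 with inhibitor and 173 in 129 with DMSO. It rose in both backgrounds and was not called between them. H2-M5, an MHC class I gene, also rose with the inhibitor in both, and was lower in B6J than in 129 (log2 difference -0.58 in the inhibitor and -0.62 in DMSO). H2-M3 fell with the inhibitor in both, and Gabbr1, a subunit of the GABA-B receptor, was called higher in B6J than in 129 in DMSO (log2 difference 0.55, adjusted p = 0.00467).

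Around Apoa2, 26 of the 28 neighbours in the table passed the filter on low counts. Tomm40l, 2.54 kb upstream, was at 8.03 CPM in B6J with inhibitor, 10.2 in B6J with DMSO, 7.42 in 129 with inhibitor and 7.81 in 129 with DMSO, and was called higher in B6J in DMSO by 0.39 on the log2 scale (adjusted p = 0.0469). Nr1i3 and Fcer1g, on either side, were under 0.5 CPM in every group mean. The largest called differences near Apoa2 went the other way: Gm10522 (-4.86 in the inhibitor and -5.85 in DMSO), Fcgr2b (-2.47 in the inhibitor and -1.58 in DMSO) and Arhgap30 (-2.08 in the inhibitor and -1.90 in DMSO) were lower in B6J than in 129 on the log2 scale.

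Around Serpina3m lie its own relatives. Serpina3n, 12.5 kb away, was at 10, 12.8 and 15.9 CPM in B6J with inhibitor and at 3.66, 4.99 and 4.56 in B6J with DMSO, against 16.3, 11.1 and 12.5 in 129 with inhibitor and 3.97, 1.64 and 1.76 in 129 with DMSO. Serpina3n rose with the inhibitor in both backgrounds (log2 fold change 1.55 in B6J and 2.43 in 129) and was not called between backgrounds. Serpina3k, which overlaps the GENCODE span of Serpina3m, had at most 5 reads in every library. Gsc, which encodes the transcription factor goosecoid, was the 1 called gene here between backgrounds, lower in B6J in DMSO (log2 difference -3.6).

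Around Crisp1 no gene passed the filter. Crisp3, 51.5 kb away, had 11, 6 and 11 reads in B6J with inhibitor and 4, 6 and 5 in B6J with DMSO, against 0 in all libraries of 129. Pgk2, the phosphoglycerate kinase of spermatogenic cells, had 2, 0 and 10 reads in B6J with inhibitor and 4, 0 and 6 in B6J with DMSO, against 0 in all libraries of 129. Crisp2, a testis gene of the same family, is not among the genes within 250 kb. It had 0, 6 and 0 reads in B6J with inhibitor and 6, 4 and 2 in B6J with DMSO, and it too was at 0 in 129. Because 2.41% of the words in Crisp1 occur in Crisp3, some of these few Crisp3 reads may belong to Crisp1.

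**Figure D4:**
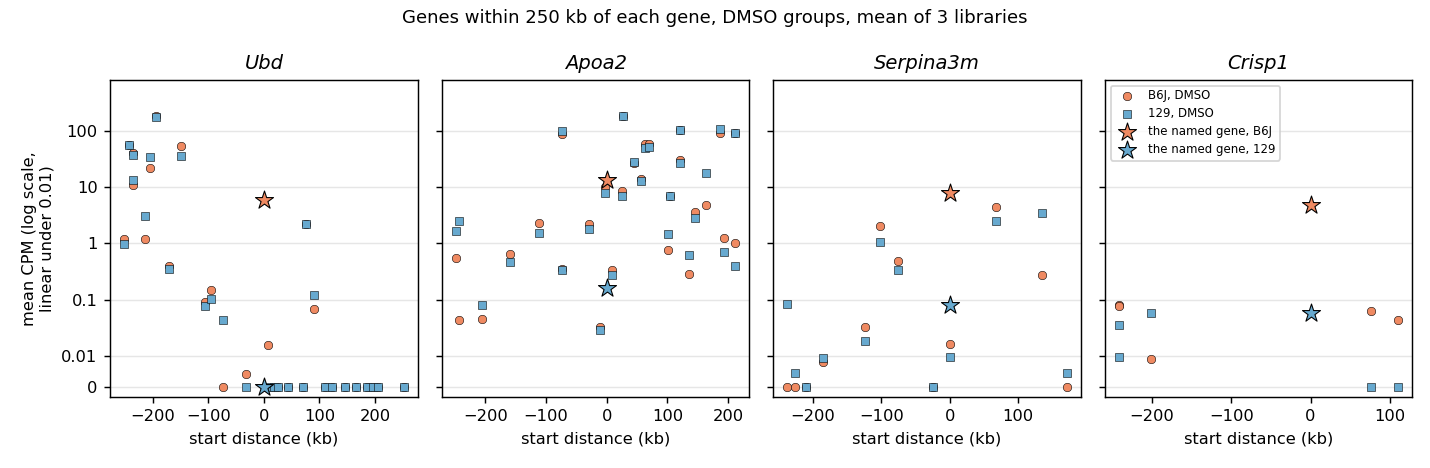
Mean CPM (log axis, linear under 0.01; n = 3) in DMSO of the genes within 250 kb of each gene, against the distance in kb of their start from its start, positive downstream on the strand of the named gene. Circles are B6J and squares 129; stars mark the named gene, which lies at 4.8 to 13.3 CPM in B6J and at 0 to 0.161 CPM in 129, while most neighbours above 1 CPM have similar levels in both backgrounds.

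FAT10 acts through a known set of partners, and these were expressed in all groups. Ube2z, the enzyme that passes activated FAT10 to its substrates, was at 229 ± 3.03 CPM in B6J with inhibitor, 247 ± 18.4 in B6J with DMSO, 244 ± 13.1 in 129 with inhibitor and 242 ± 16.4 in 129 with DMSO (SD, n = 3 each). Nub1, which speeds degradation of FAT10, was at 85.2 CPM in B6J with inhibitor, 85.9 in B6J with DMSO, 84.5 in 129 with inhibitor and 94.4 in 129 with DMSO. For this list and those below, the shares over all genes tested were 14.6% higher and 16.5% lower with the inhibitor in B6J, and 17.4% and 18.2% in 129. Between backgrounds they were 8.90% higher and 9.47% lower in B6J in the inhibitor, and 10.4% and 10.5% in DMSO. Of the 10 genes of the FAT10 list, 0 rose and 2 fell with the inhibitor in B6J, Faf1 (log2 fold change -0.30) and Mad2l1 (-0.22). In 129, 0 rose and 1 fell (Aipl1, -2.21), and 2 were called higher and 0 lower in B6J than in 129 in each medium. Their median log2 fold change in B6J was -0.16, against 0.00 over all genes.

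Other ubiquitin-like modifiers and their enzymes were tested as 15 genes. In B6J 3 rose with the inhibitor and 0 fell, among them Ube2l6 (0.76), an E2 enzyme of ISG15, and Urm1 (0.57), both in log2 fold change. In 129, 3 rose and 0 fell. Isg15 itself, which like FAT10 has tandem ubiquitin-like domains, was at 7.53 CPM in B6J with inhibitor, 5.95 in B6J with DMSO, 9.39 in 129 with inhibitor and 12.3 in 129 with DMSO. It was lower in B6J than in 129 in DMSO (log2 difference -1.05, adjusted p = 0.0064), and was not called with the inhibitor in either background.

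Genes that interferon gamma or TNF induce, as they do Ubd, mostly fell with the inhibitor. In B6J 12 of 23 tested fell and 3 rose, with a median log2 fold change of -0.51. Gbp2, an interferon-induced GTPase, had a log2 fold change of -3.46 ± 0.330 (SE) and fell to 3.6 ± 0.471 CPM in B6J with inhibitor, against 39.7 ± 9.05 in B6J with DMSO. Psmb8, a catalytic subunit of the immunoproteasome, fell too (-2.77 ± 0.383), as did the chemokine gene Cxcl10 (-1.86 ± 0.428) and the transcription factor gene Irf8 (-1.79 ± 0.327). Icam1 (0.61) and Nfkbia (0.27) were among those that rose. In 129 17 fell and 3 rose, with a median of -1.19. Between backgrounds, 1 was called higher and 14 lower in B6J in DMSO, and 0 higher and 3 lower in the inhibitor, or 1 and 6 without replicate 1 of 129 with DMSO.

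**Figure D5:**
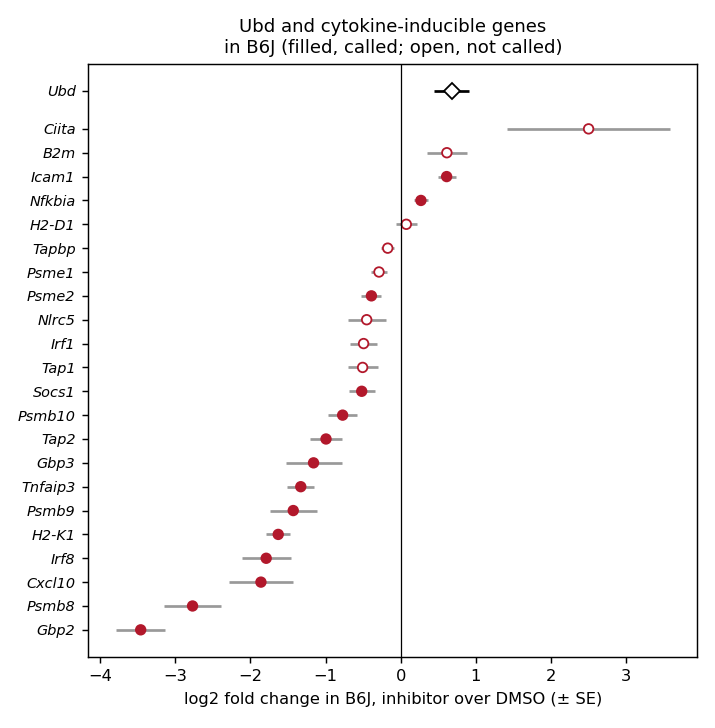
Log2 fold change in B6J, inhibitor over DMSO, with its SE, for Ubd (diamond, top) and genes inducible by interferon gamma or TNF (circles; filled where called). Ubd is at 0.68, while 12 of these genes fell, from Gbp2 at -3.46 to Psme2 at -0.39, and Icam1 (0.61) and Nfkbia (0.27) rose.

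Apolipoprotein and high-density lipoprotein genes were mixed. Of 23 listed, 16 were tested, and in B6J 5 rose and 3 fell with the inhibitor. Lipg, endothelial lipase, fell (log2 fold change -3.05 ± 0.184, SE), and so did Clu, also called apolipoprotein J (-1.55 ± 0.330). Lipc, hepatic lipase, rose by 1.22 (SE 0.343) and Apom by 1.12 (SE 0.263). In 129, 4 rose and 3 fell. Apoa1, the partner of apolipoprotein A-II in high-density lipoprotein, was at 0.133 ± 0.0113 CPM in B6J with inhibitor, 0.308 ± 0.138 in B6J with DMSO, 0.180 ± 0.0538 in 129 with inhibitor and 0.165 ± 0.0532 in 129 with DMSO, and was not called in any contrast.

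Between backgrounds, 2 of the 16 were called higher and 6 lower in B6J in the inhibitor, and 3 higher and 6 lower in DMSO. Apoe was called higher in B6J in both media, at 488 ± 7.63 CPM in B6J with inhibitor against 277 ± 54.6 in 129 with inhibitor, and at 477 ± 98.4 in B6J with DMSO against 214 ± 1.93 in 129 with DMSO. Apod was lower in B6J (log2 difference -3.22 in the inhibitor and -3.08 in DMSO), and so was Apom (-2.61 in the inhibitor and -1.74 in DMSO).

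Of the other clade A serpins, 23 of 24 listed were in the table and 6 were tested. With the inhibitor in B6J, Serpina3i (1.77) and Serpina3n (1.55) rose, and Serpina10 was called lower, at 0 reads in B6J with inhibitor against 0.121 ± 0.0658 CPM in B6J with DMSO. In 129, 4 rose (Serpina3f by 2.92, Serpina3n by 2.43, Serpina3i by 1.68 and Serpina3g by 1.39 on the log2 scale) and 1 fell. Between backgrounds, 0 were called in either medium. Under 0.1 CPM in every library were 14 of the 23, and 4 had 0 reads throughout, the liver genes Serpina1a and Serpina1d among them.

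The CAP superfamily, to which Crisp1 belongs, had 7 of 14 listed genes tested. R3hdml rose with the inhibitor by 2.17 in B6J (SE 0.269), the 1 call there, and by 0.93 in 129. In 129 Crispld2 also rose (0.65) and Crispld1 fell (-0.99). Between backgrounds Glipr2 was higher in B6J in the inhibitor by 0.55 on the log2 scale (adjusted p = 0.0482), the 1 call over both media. Crisp4, which like Crisp1 is an epididymal gene, had 0 reads in every library.

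The tissues in which these genes are best known left few reads. Of 17 epididymis markers, 0 passed the filter, 15 were under 0.1 CPM in every library and 10 had 0 reads throughout, among them Lcn5, Lcn8 and Gpx5. Their summed level was 0.109 to 0.291 CPM in B6J with inhibitor, 0.0361 to 0.054 in B6J with DMSO, 0.179 to 0.303 in 129 with inhibitor and 0.109 to 0.206 in 129 with DMSO. Of 18 hepatocyte markers 9 were tested, and Alb (albumin) was at 0.0393 CPM or less in every group mean. In B6J 1 rose and 2 fell with the inhibitor, and in 129 2 rose and 0 fell.

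The hepatocyte markers summed to 10.1 to 12.1 CPM in B6J with inhibitor, 7.96 to 10 in B6J with DMSO, 15.4 to 18 in 129 with inhibitor and 12.3 to 20.8 in 129 with DMSO. Between backgrounds, 0 of the 9 tested were called higher and 2 lower in B6J in the inhibitor, and 1 higher and 2 lower in DMSO. Hnf4a, a liver and endoderm transcription factor, was lower in B6J than in 129 (log2 difference -3.45 in the inhibitor and -6.32 in DMSO). Among the endoderm markers below, 0 were called higher and 2 lower in B6J than in 129 in the inhibitor, and 2 higher and 5 lower in DMSO. The DMSO comparisons include replicate 1 of 129, whose endoderm sum stood apart. Of 18 primitive and visceral endoderm markers, 16 were tested, and 0 were called higher and 2 lower with the inhibitor in B6J, and 0 higher and 9 lower in 129. The endoderm markers summed to 2520 to 3600 CPM in B6J with inhibitor, 2000 to 2120 in B6J with DMSO and 2440 to 3710 in 129 with inhibitor, and to 8990, 1490 and 1500 CPM in the 3 libraries of 129 with DMSO. The counts of endoderm markers called with the inhibitor rest on replicate 1 of 129 with DMSO, which holds the sum of 8990. Without it, 5 were called higher and 5 lower in B6J, and 4 higher and 3 lower in 129. Leaving out replicate 1, 2 or 3 of 129 with inhibitor left 5, 3 and 3 lower in 129. In B6J, leaving out any other library gave 0 higher and 1 to 3 lower. The hepatocyte markers together were lower in every B6J library than in every 129 library, by a narrow margin, at most 12.1 CPM against at least 12.3. Apoa2 was at 12.9 CPM or more in every B6J library. What part cells with hepatocyte markers have in the Apoa2 level was not tested.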

How the data were processed

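The authors deposited raw read counts per gene for the 12 libraries. Tools named in the submitters' processing notes are STAR 2.7.10 and HTSeq 0.6.1p1, besides SAMtools and DESeq, and the named builds are GRCm38 and mm10; neither list gives roles. The annotation behind the counts was not given in the sources used here, nor was the strand setting. GRCm38 is a C57BL/6J assembly, and the effect of mapping 129 reads to it was not tested. Of the 26742 identifiers, 26656 are in GENCODE M21. In each library 70.1 to 73.4% of the low values (1 to 20) were even, so halved counts were tried.

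Libraries were scaled by TMM, genes filtered with filterByExpr (min.count 10, min.total.count 15), and 4 group means fitted with edgeR 4.0.16 in R 4.3.3 (glmQLFit, glmQLFTest), after a check on simulated counts. Alternatives used DESeq2 1.42.0, limma 3.58.1, other scalings and filters, halved counts, a fibroblast covariate, replicate blocks and left-out libraries. Replicate numbers paired the 129 libraries (r of same-numbered deviations 0.222 to 0.442) but not the B6J libraries (-0.188 to 0.0883), so blocks are alternatives. The members and the 13 gene lists were chosen with earlier results of these data known. Named genes were the members, up to 4 called genes per list with the largest changes, called or direct neighbours, the 3 most correlated genes per member and the highest genes on in B6J only; Pou5f1, Ube2z, Nub1, Isg15, Apoa1, Serpina1a, Serpina1d, Crisp2, Crisp4 and the markers given at or near 0 were named after their values were seen. Some genes of the lists and neighbourhoods are counted but not reported here by name or drawn.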

Additional observations from a re-analysis of the deposited data

Results flagged for a closer look

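The response of Serpina3m to the inhibitor differed between backgrounds. The difference, B6J minus 129, was -2.38 on the log2 scale (SE 0.494, adjusted p = 0.0405 in edgeR's quasi-likelihood test), from group means of 6.19 CPM in B6J with inhibitor and 7.85 in B6J with DMSO, against 0.335 in 129 with inhibitor and 0.080 in 129 with DMSO. The 129 levels rest on 76 and 17 reads, and the call was lost without any of 10 of the 12 libraries (adjusted p 0.0753 to 0.121). Serpina3m was selected for its low levels in 129, which enter this difference, so the call is not independent of the selection. Groups of 3 libraries are too small for a search for outlying single values.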

How the results depend on the processing

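Ubd in B6J was called, unlike in the reported fit, with DESeq2 size factors in edgeR (log2 fold change 0.69, adjusted p = 0.0478), min.count 50 (0.679), DESeq2 (0.69), limma-voom (0.674), only the B6J groups (0.677), halved counts (0.676), a replicate block within each background (0.676) and without the library of each group that stands apart (0.752); the last 2 were chosen after seeing the data, as were the counts per gene list without single libraries. Under each of these 8, 2 members were called. With the replicate block over all libraries Ubd was not called (0.677, adjusted p = 0.0845), nor with the fibroblast covariate (0.79, adjusted p = 0.156). Leaving out each library gave 0.617 to 0.733 for Ubd (adjusted p 0.00604 to 0.159; called without any one of the 6 libraries of 129), 0.698 to 0.891 for Crisp1 in B6J (adjusted p 0.0064 to 0.0936), -0.419 to -0.264 for Serpina3m in B6J, and 0 to 2 members called. Crisp1 in 129 ranged from 2.27 to 3.07 and Serpina3m in 129 from 1.79 to 2.68, with all calls kept. The Serpina3m interaction ranged from -3.03 to -2.13 (adjusted p 0.00963 to 0.121), and its call was lost with limma-voom (-2.36, adjusted p = 0.0914) and the replicate block (-2.39, adjusted p = 0.0778). The Crisp1 interaction ranged from -2.31 to -1.51 and was called with DESeq2 (-1.89), the fibroblast covariate (-1.94) and without replicate 2 of 129 with inhibitor (-2.07, adjusted p = 0.0418). Serpina3m in 129 lost its call with the fibroblast covariate (1.5). Apoa2, never called, turned in sign in B6J with the fibroblast covariate (-0.117). Without replicate 1 of 129 with inhibitor it turned in 129 (-0.088) and in the interaction (0.20), as it did without the 4 libraries that stand apart (-0.367 and 0.398); leaving out single libraries gave -0.088 to 0.804 in 129 and -0.692 to 0.20 in the interaction. Without those 4 libraries 3748 genes were called higher with the inhibitor in B6J, 5757 between backgrounds in the inhibitor and 6493 in DMSO, against 2423, 3053 and 3468 reported. Genes on in B6J only by level were 6 and 19 with 129 limits of 0.05 and 0.2 CPM, and 20 and 7 with B6J limits of 0.5 and 2 CPM, against 12. The causes of these shifts were not tested. Depth limits the 129 values, which rest on 0 to 81 reads per group.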
